A study of Mus musculus with 14 samples.

Results

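The genes described here encode enzymes that handle nitrogen and make glucose in hepatocytes: Cps1, Otc, Ass1 and Asl of the urea cycle, Glul, which makes glutamine, Pck1, Fbp1 and G6pc of gluconeogenesis, and Tat, which starts the breakdown of tyrosine. They were taken as a named list of 10 without reference to a threshold, all 10 were found among the 28022 genes of the count table, and values are given here for 9 of them. RNA sequencing was performed on 14 libraries of C57BL/6J mouse origin, 2 for each of 7 conditions, to ask how far converted hepatic cells approach liver tissue in flat culture, as organoids and as organoids that contain endothelial cells. The label Fib stands for fibroblasts, which were mouse embryonic fibroblasts (MEFs) from mid-gestation embryos. The label 2D-iHepSC (2D-iHs) stands for induced hepatic stem cells, which are MEFs converted with lentiviral Oct4 and Hnf4α and grown flat on collagen. The label 2D-iHepSCiEC (2D-iHEs) stands for the same cells grown flat with induced endothelial cells, which are human HF1 fibroblasts converted with lentiviral ETV2. The label 3D-iHA (iHLOs) stands for spheroids of 30000 iHepSCs encapsulated in a hydrogel, and 3D-iHEA (iHEAs) for the same spheroids with 20000 iECs mixed into the hydrogel. All cultures therefore carried the Oct4 and Hnf4α vectors, and human reads from the iECs entered the counts only if they fitted a mouse gene, to an extent that was not measured. Adult-Liver was whole liver, which the methods of the study describe as coming from mice of 6 weeks, and Fetal-Liver was whole mid-gestation liver, an organ that also makes blood. The labels call every library replicate 1, and nothing states that the libraries of a condition came from separate cultures or animals, so that each p-value measures the spread between these libraries, which may be technical.

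The urea cycle turns ammonia into urea. Cps1 and Otc work in the mitochondrion and build citrulline from ammonia, bicarbonate and ornithine. Ass1 and Asl work in the cytosol and pass through argininosuccinate to arginine. In adult liver the cycle runs in hepatocytes around the portal vein, whereas Glul, glutamine synthetase, captures the remaining ammonia in the hepatocytes around the central vein. Gluconeogenesis builds glucose from lactate and amino acids, and Pck1, Fbp1 and G6pc carry out its bypass steps, which are not shared with glycolysis. Tat, tyrosine aminotransferase, is a classical target of glucocorticoids that is switched on around birth. Ass1, Asl and Glul are used by many cell types, because they also supply arginine and glutamine, whereas the other members are known mainly from liver, kidney or gut.

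The genes lie at chr1:67123026-67231259 (Cps1), chrX:10252305-10321024 (Otc), chr2:31470207-31520672 (Ass1), chr5:130011258-130029247 (Asl), chr1:153899944-153909723 (Glul), chr2:173153048-173159273 (Pck1), chr13:62864753-62888282 (Fbp1), chr11:101367561-101377903 (G6pc) and chr8:109990437-109999803 (Tat) of mouse build GRCm38, in the GENCODE vM21 annotation. Asl and Fbp1 lie on the minus strand and the others on the plus strand. Only Glul shared exon bases with other annotated genes, Mir8114 on its own strand and Teddm2 on the opposite strand, and the strand setting of the counting is not given in the sources used here, so that reads of these genes cannot be told apart there.

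RefSeq promoter sequences (GRCm38.p6) were matched by symbol for 7 of the 9 members, Otc, Ass1, Glul, Pck1, Fbp1, G6pc and Tat. The 250 bases before the start site are shown for the 4 members called higher in 3D than in 2D culture (G6pc, Otc, Glul and Tat) and for Pck1 beside Pck2, the mitochondrial form of the same enzyme, which the cultures had in its place. G6pc and Otc had too few reads for the main test, and G6pc was nearly unread in iHEAs (1 and 2 counts). All windows are read on the plus strand, on which the genes lie, and capitals mark matches, on either strand, to 9 motifs, namely the TATA box (TATAAA), the CCAAT box (CCAAT), the GC box (GGGCGG), the cAMP response element core (ACGTCA), the FOXA core (TGTTTAC), an HNF4 site (CAAAGTCC), the C/EBP core (TTGCGCAA), the C/EBP-ATF composite site (TGATGNAA) and a glucocorticoid receptor site (TGTTCT).
Pck1 (chr2:173152823-173153072): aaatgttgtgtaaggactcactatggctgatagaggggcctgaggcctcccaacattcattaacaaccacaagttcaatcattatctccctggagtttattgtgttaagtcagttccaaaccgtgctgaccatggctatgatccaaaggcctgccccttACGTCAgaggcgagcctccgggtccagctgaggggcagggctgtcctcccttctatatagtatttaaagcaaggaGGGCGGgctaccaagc
Pck2 (chr14:55540016-55540265): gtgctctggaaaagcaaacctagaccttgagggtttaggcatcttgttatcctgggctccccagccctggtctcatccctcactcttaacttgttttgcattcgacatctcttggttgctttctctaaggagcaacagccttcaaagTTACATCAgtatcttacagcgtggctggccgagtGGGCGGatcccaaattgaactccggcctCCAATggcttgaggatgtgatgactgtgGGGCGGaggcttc
G6pc (chr11:101367466-101367715): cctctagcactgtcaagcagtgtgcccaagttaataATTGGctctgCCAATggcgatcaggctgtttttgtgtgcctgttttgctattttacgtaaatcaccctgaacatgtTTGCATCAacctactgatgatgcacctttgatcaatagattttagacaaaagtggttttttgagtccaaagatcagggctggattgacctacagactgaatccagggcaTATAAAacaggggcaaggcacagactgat
Otc (chrX:10252055-10252304): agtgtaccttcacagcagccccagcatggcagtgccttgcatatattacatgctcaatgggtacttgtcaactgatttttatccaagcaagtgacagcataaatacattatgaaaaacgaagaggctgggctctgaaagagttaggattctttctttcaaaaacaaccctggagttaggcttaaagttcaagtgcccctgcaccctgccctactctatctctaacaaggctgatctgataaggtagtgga
Glul (chr1:153899679-153899928): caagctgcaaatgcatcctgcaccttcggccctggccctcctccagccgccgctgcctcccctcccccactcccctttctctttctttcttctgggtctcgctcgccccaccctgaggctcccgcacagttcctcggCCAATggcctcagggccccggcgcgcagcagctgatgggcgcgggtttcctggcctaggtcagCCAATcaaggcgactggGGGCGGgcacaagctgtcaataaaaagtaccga
Tat (chr8:109990186-109990435): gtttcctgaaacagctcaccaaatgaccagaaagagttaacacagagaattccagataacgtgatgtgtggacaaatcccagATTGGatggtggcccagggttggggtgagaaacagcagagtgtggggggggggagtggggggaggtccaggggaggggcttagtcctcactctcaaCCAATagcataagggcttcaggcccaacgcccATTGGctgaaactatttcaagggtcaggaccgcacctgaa
The 250-base window of Pck1 held the cAMP response element core 91 bases before the start, a motif found in 6.47% of 32851 promoters of the same length, and a GC box found in 32.7%. The Pck2 window held no such core but had GC boxes 13 and 69 bases before the start, a CCAAT box (in 33.8% of promoters) and a C/EBP-ATF composite site (in 3.45%). The G6pc window held a TATA box 29 bases before the start (in 12.4%), a composite site 138 bases before it and CCAAT boxes 204 and 214 bases before it. The Glul window held CCAAT boxes 50 and 113 bases before the start and a GC box, and the Tat window held CCAAT boxes 40, 72 and 168 bases before the start. None of the 9 motifs was found in the Otc window. The glucocorticoid receptor site (in 16.1%), the FOXA core (in 3.17%), the HNF4 site (in 1.20%) and the C/EBP core (in 0.164%) were matched in none of the 7 members' windows, which says only that these letters were not in 250 bases. The windows of Ass1 and Glul held 23 and 15 CG dinucleotides, and those of Otc, G6pc, Tat, Pck1 and Fbp1 held 1, 2, 3, 5 and 5, against a median of 6 over all promoters.

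The libraries held 20851489 to 35143325 counted reads. Counts were scaled by TMM, a method that centres the bulk of genes between libraries, and levels are given as TMM-scaled CPM, the count relative to the scaled size of the library. Alb alone took 23.6% and 22.5% of the counts in adult liver, so that the TMM factors of the adult libraries were 0.429 and 0.438 against 1.11 to 1.20 in the others, and levels against adult liver are given here also as plain shares of the total count. A count of 3 reads, the limit used for genes that may be absent, corresponded to 0.0745 to 0.209 CPM. The hepatic label was checked against 9 hepatocyte markers, of which all 9 exceeded 3 counts in both adult libraries, 3 did so in all 4 2D libraries and 4 in all 4 3D libraries. Tat, itself a member, is 1 of the 9. Apoa1, Ttr and Hpx exceeded 3 counts in all 2D and 3D libraries, and the marker added in 3D was Tat. The step from 3 to 4 is therefore no separate check. Their summed level was 594447 to 635608 CPM in adult liver, 11529 to 14509 CPM in fetal liver and 280 to 389 CPM in the cultures, and Alb itself had 2 to 210 counts in the cultures against 8113083 and 7888792 in adult liver. A pair of culture libraries stood apart. The library 2D-iH 1 held counts of adult liver genes that 2D-iH 2 nearly lacked (Alb 210 and 9, Cyp2e1 19 and 0, Cyp3a11 7 and 0), and the iHEA libraries differed from each other more than other culture replicates did, with a chi-square per gene of 10.9 against 3.30 to 3.49. The fetal pair differed similarly, at 12.7. The adult liver libraries held 14646 and 16368 counts of Xist and no counts of 4 Y-linked genes, although the methods name male mice. In such bulk samples, fewer hepatocytes and less RNA per hepatocyte cannot be told apart.

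In adult liver all 9 enzymes were read in depth, from 781 counts (G6pc) to 122899 counts (Cps1). Per kilobase of exon, the highest levels were those of Ass1 (2051 ± 157 CPM per kb, SD, n = 2), Tat (1873 ± 7.32), Cps1 (1467 ± 15.8) and Fbp1 (1304 ± 9.89), followed by Pck1 (645 ± 14.2), Glul (383 ± 5.28), Asl (289 ± 3.11), Otc (236 ± 11.3) and G6pc (22.8 ± 1.73). The members together took 1.09% of all counts in each adult liver library, 0.0462% to 0.0506% in fetal liver, 0.0534% to 0.0550% in the 3D cultures, 0.0264% to 0.0275% in the 2D cultures and 0.00961% to 0.00992% in MEFs. The order was different in the other conditions, in all of which Glul came first, Ass1 next and Asl after it, although in fetal liver Asl (9.27 ± 0.163) and Otc (9.27 ± 1.06) did not differ beyond their spread. In the cultures Glul, Ass1 and Asl were followed by Tat, at condition means of no more than 3.73 CPM per kb, or 0.898 where iHEA 1 was left out. In MEFs Glul (11.7 ± 0.209) and Ass1 (11.5 ± 0.575) did not differ beyond their spread.

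**Figure D1:**
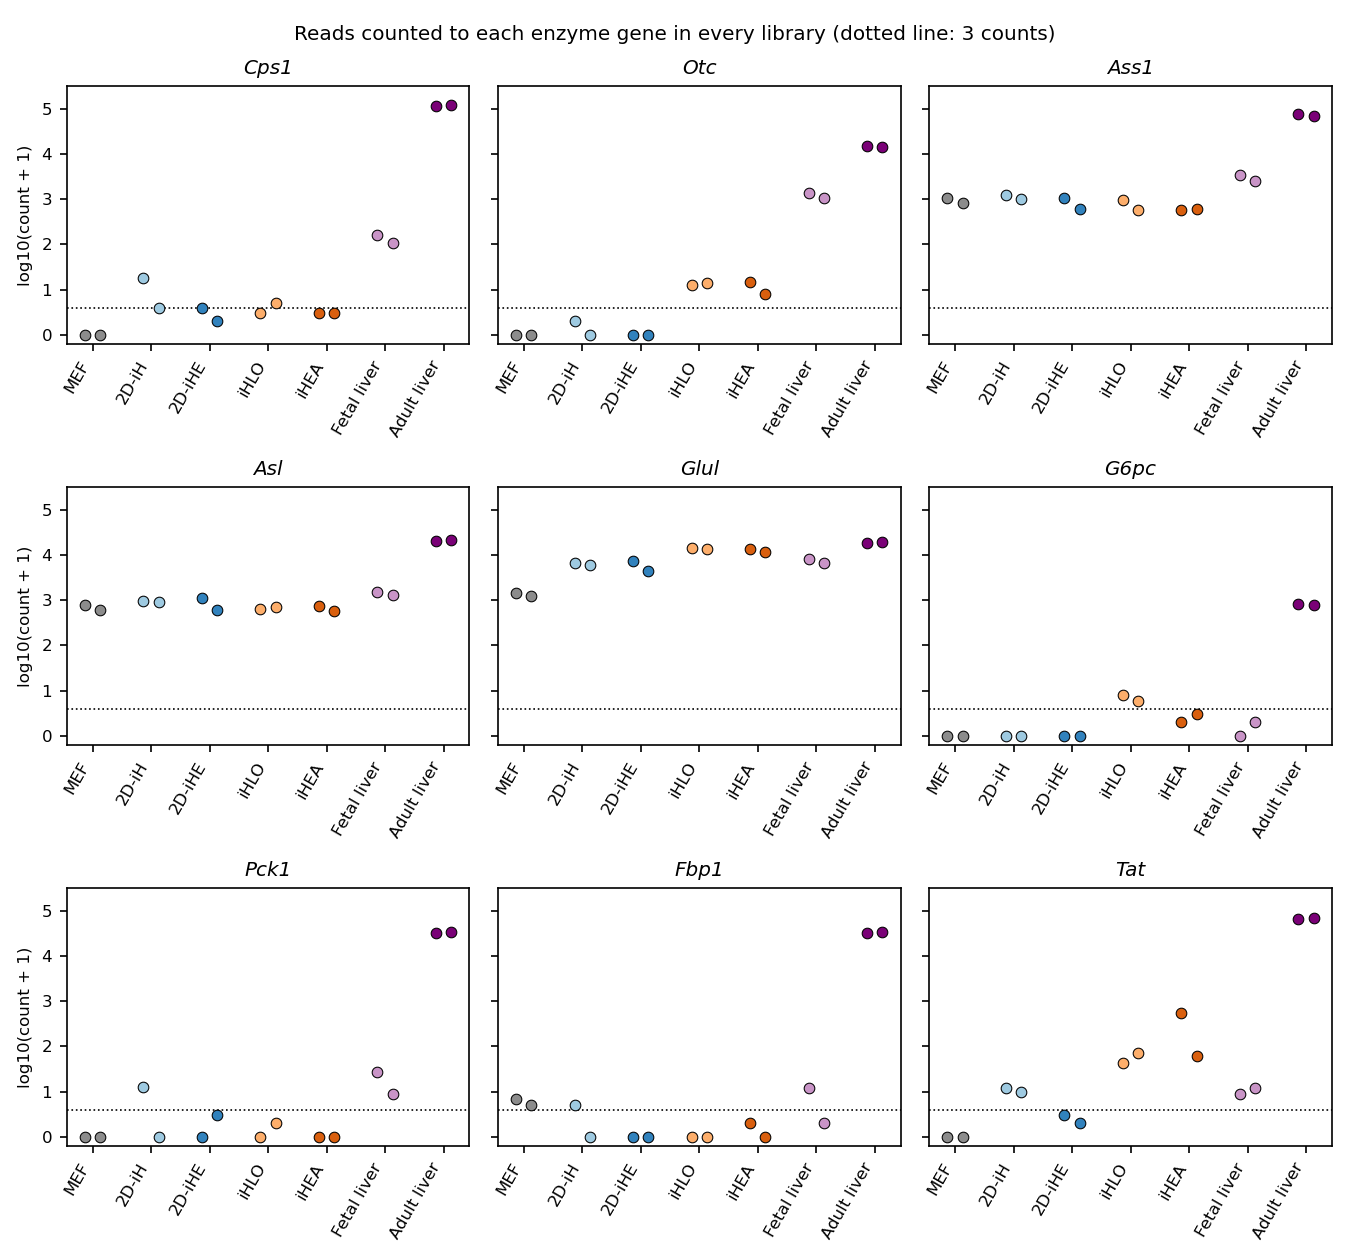
Counts of the 9 enzyme genes in all 14 libraries, as log10(count + 1), with the libraries of each condition side by side and a dotted line at 3 counts. Ass1, Asl and Glul sit far above the line in all conditions, the other members approach or cross it in the cultures, and the adult liver libraries are highest for every member.

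The first steps of the urea cycle were close to absent from the cultures. Cps1, the entry enzyme, had 116083 and 122899 counts in adult liver and 157 and 104 in fetal liver. In the cultures it had 17 and 3 counts in 2D-iHs, 3 and 1 in 2D-iHEs, 2 and 4 in iHLOs and 2 and 2 in iHEAs, and none in MEFs. Only the library 2D-iH 1, which also held other adult liver reads, exceeded 4 counts. Otc, the next enzyme, had 14880 and 14503 counts in adult liver and 1393 and 1072 in fetal liver. It had 12 and 13 counts in iHLOs and 14 and 7 in iHEAs against 1, 0, 0 and 0 in the 4 2D libraries and none in MEFs, so that the 3D and 2D libraries did not overlap, at a level of 0.0349% of adult liver (0.0982% as a share of total counts). Nags, which makes the activator that Cps1 requires, had 1827 and 1905 counts in adult liver, 409 and 327 in fetal liver, and at most 1 in any culture or MEF library.

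Ass1 and Asl differed from these. Ass1, which joins citrulline to aspartate, had 1058 and 823 counts in MEFs, 1212 and 995 in 2D-iHs, 1082 and 603 in 2D-iHEs, 948 and 575 in iHLOs, 585 and 598 in iHEAs, 3469 and 2545 in fetal liver and 74923 and 70078 in adult liver. Asl, which releases arginine, had 800 and 619 counts in MEFs, 975 and 900 in 2D-iHs, 1127 and 603 in 2D-iHEs, 644 and 699 in iHLOs, 744 and 572 in iHEAs, 1487 and 1313 in fetal liver and 19880 and 21047 in adult liver. Both genes were thus read at like levels in the fibroblasts and in the converted cells, at 20.0 to 26.8 CPM for the condition means of Asl and 18.99 to 31.5 CPM for those of Ass1. In order of level, the ranges of Ass1 overlapped between neighbours from MEFs down through 2D-iHEs and iHLOs to iHEAs, and those of Asl overlapped between 2D-iHs and 2D-iHEs and again among MEFs, iHEAs and iHLOs.

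Glul was the member nearest to its adult level. It had 1413 and 1210 counts in MEFs, 6477 and 5834 in 2D-iHs, 7290 and 4519 in 2D-iHEs, 14201 and 13665 in iHLOs, 13481 and 11443 in iHEAs, 7944 and 6668 in fetal liver and 18104 and 19248 in adult liver. The conditions ran in the order adult liver, iHLOs, iHEAs, fetal liver, 2D-iHEs, 2D-iHs and MEFs, with no overlap between neighbours. The 3D libraries stood at 31.9% of the adult level after TMM scaling and at 89.7% as a share of total counts, and the 2D libraries at 14.1% and 38.1%.

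Pck1, Fbp1 and G6pc were nearly unread in all cultures. Pck1, which commits oxaloacetate to glucose, had 31263 and 33626 counts in adult liver and 26 and 8 in fetal liver, against 12 and 0 in 2D-iHs, 0 and 2 in 2D-iHEs, 0 and 1 in iHLOs, and none in iHEAs and MEFs. Fbp1, which removes a phosphate from fructose bisphosphate, had 32028 and 33039 counts in adult liver and 11 and 1 in fetal liver, against 6 and 4 in MEFs, 4 and 0 in 2D-iHs, 1 and 0 in iHEAs and none in 2D-iHEs and iHLOs. G6pc, which frees glucose for export, had 834 and 781 counts in adult liver and 0 and 1 in fetal liver, against 7 and 5 in iHLOs, 1 and 2 in iHEAs and none in the 2D cultures and MEFs. In both iHLO libraries G6pc exceeded the 3-count limit, and in both iHEA libraries it did not.

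Tat had 64505 and 67631 counts in adult liver, 8 and 11 in fetal liver and none in MEFs. It had 11 and 9 counts in 2D-iHs, 2 and 1 in 2D-iHEs, 43 and 71 in iHLOs, and 538 and 62 in iHEAs, where 538 belongs to the library numbered 1. Every 3D library was above every 2D library, and the iHEA library with 62 counts lay between the iHLO libraries on the raw scale. The 3D mean was 0.119% of the adult level (0.334% as a share of total counts), and without iHEA 1 it was 0.0412% (0.116%).

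In the comparison of 3D with 2D culture, over all 8 culture libraries, 4 of the 9 members had enough reads to be tested. At an adjusted p under 0.05 (edgeR quasi-likelihood test with Benjamini-Hochberg adjustment), Glul and Tat were higher in 3D and Asl and Ass1 were lower. Tat passed the filter only through the 3D libraries, so that it had to differ, and its calls in this and the other comparisons of 3D with 2D are given as a description. Of all 13409 genes tested, 75.9% were called in this comparison, 38.7% higher and 37.2% lower, so that most genes of any kind therefore passed the same threshold. Glul rose from 179 ± 4.48 CPM in 2D to 406 ± 11.1 CPM in 3D (SD, n = 4 each). The fitted log2 difference was 1.22 ± 0.040 (SE, adjusted p = 2.67e-10, edgeR). Tat rose by 4.98 ± 1.01 on the log2 scale (adjusted p = 0.000857, edgeR), from 0.165 ± 0.139 to 5.34 ± 6.98 CPM, a mean that iHEA 1 dominates. Without that library the log2 fold change of Tat was 3.46 (adjusted p = 3.44e-05, edgeR). Asl fell by 0.34 ± 0.057 on the log2 scale (adjusted p = 0.000203, edgeR), and its 3D libraries, at 18.98 to 21.8 CPM, did not overlap the 2D libraries at 24.7 to 28.0 CPM. Ass1 fell by 0.42 ± 0.14 on the log2 scale (adjusted p = 0.0199, edgeR), and its 3D libraries, at 17.2 to 27.9 CPM, overlapped the 2D libraries at 24.7 to 32.8 CPM. The call of Ass1 did not hold without 2D-iH 1 (log2 fold change -0.36, adjusted p = 0.0537, edgeR), without iHLO 2 (-0.34, 0.0623) or without iHEA 1 (-0.33, 0.0574).

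When the members under the filter were added to the same fit, Otc (adjusted p = 1.38e-05, edgeR) and G6pc (adjusted p = 0.00555, edgeR) were called higher in 3D. As the 2D libraries held at most 1 count of Otc and none of G6pc, the folds are lower bounds, against 3 counts in each 2D library, of at least 3.79-fold for Otc and at least 1.24-fold for G6pc. As for Tat, the calls of both here and in the other comparisons of 3D with 2D are given as a description. Cps1, Pck1 and Fbp1 were not called, at adjusted p = 0.193, 0.0798 and 0.361 (edgeR). Counts this low cannot show a difference of moderate size, and for Pck1 and Fbp1 the 2D counts came mainly from 2D-iH 1. Marker lists of other cell types and states moved with the 3D condition as well. The summed level of 8 intestinal and stomach markers was 466 to 802 CPM in 2D and 2186 to 2249 CPM in 3D, that of 8 endothelial markers 407 to 473 and 858 to 1328 CPM, and that of 5 proliferation markers 1097 to 1207 and 268 to 308 CPM. The endothelial sum rose mainly through Vwf, from 363 to 1010 counts in 2D to 11946 to 25206 in 3D. Tek, Tie1 and Pecam1 had more counts in 3D, whereas Kdr and Eng had fewer. The sum was higher in iHLOs (1190 to 1328 CPM), which held no iECs, than in iHEAs (858 to 924 CPM). The part of these marker lists in the changes of the members was not tested.

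**Figure D2:**
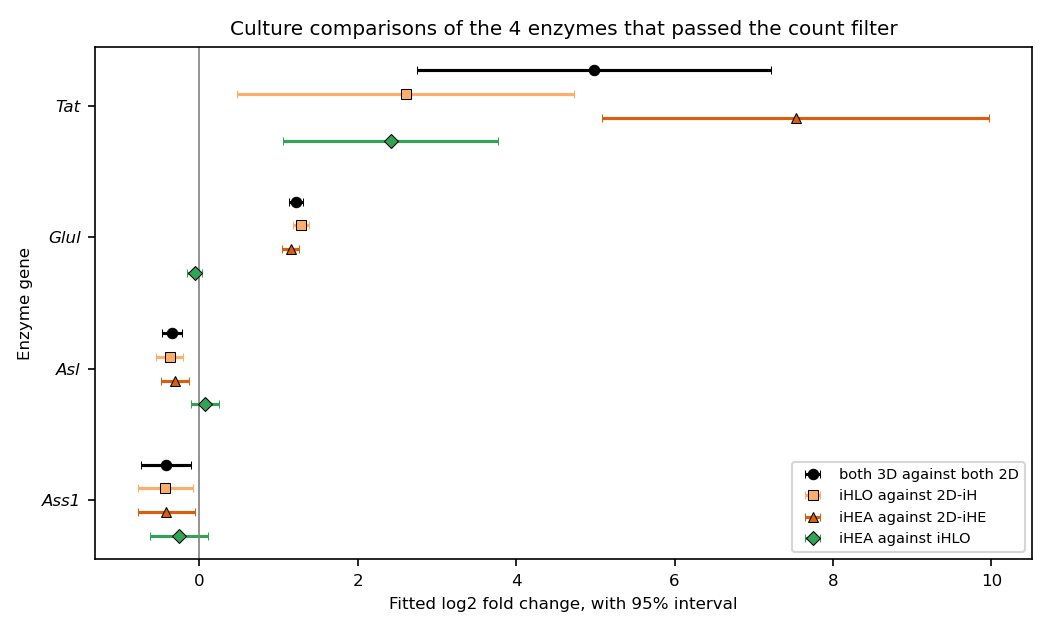
Fitted log2 fold changes (x axis) with 95% intervals of Tat, Glul, Asl and Ass1 in 4 culture comparisons, marked by shape and colour. Glul and Tat lie above 0 in all comparisons of 3D with 2D, Asl and Ass1 lie below 0, and the comparison of iHEAs with iHLOs crosses 0 for Glul, Asl and Ass1.

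The same directions were seen within each kind of culture. In iHLOs against 2D-iHs, where 72.3% of all genes were called (36.9% higher and 35.3% lower), Glul (log2 fold change 1.28 ± 0.047, adjusted p = 5.52e-11, edgeR) and Tat (2.60 ± 0.98, adjusted p = 0.0297) were higher, and Asl (-0.38 ± 0.079, adjusted p = 0.000822) and Ass1 (-0.43 ± 0.16, adjusted p = 0.0265) were lower. The call of Tat there did not hold without 2D-iH 1 (2.65, adjusted p = 0.108, edgeR), 2D-iH 2 (2.54, 0.104) or iHLO 2 (2.18, 0.154) or with all 14 libraries in one fit (2.56, 0.0819), and that of Ass1 did not hold without 2D-iH 1 (-0.39, adjusted p = 0.121, edgeR), without iHLO 2 (-0.12, 0.351) or by DESeq2 (-0.44, 0.125). Of the added members, Otc (adjusted p = 0.000411, edgeR) and G6pc (adjusted p = 0.00226) were higher in iHLOs. In iHEAs against 2D-iHEs, where 70.9% were called (36.0% higher and 34.9% lower), Glul (1.15 ± 0.047, adjusted p = 1.66e-10, edgeR) was higher, and so was Tat (adjusted p = 5.14e-05), at least 90.9-fold against 3 counts in each 2D-iHE library, or at least 21.9-fold with the iHEA library other than iHEA 1 alone. Asl (-0.31 ± 0.080, adjusted p = 0.00383, edgeR) and Ass1 (-0.42 ± 0.17, adjusted p = 0.0385) were lower, and neither call held without 2D-iHE 1 (Asl -0.22, adjusted p = 0.0668, and Ass1 -0.37, adjusted p = 0.184, edgeR). The call of Ass1 also failed without 2D-iHE 2 (-0.47, adjusted p = 0.0750, edgeR), without either 2D-iH library (-0.42, 0.0529 each), without iHEA 1 (-0.27, 0.135) and by DESeq2 (-0.41, 0.155). Of the added members, Otc was higher in iHEAs (adjusted p = 0.000339, edgeR), and G6pc was not called (adjusted p = 0.0674).

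The addition of iECs was examined in 3D and in 2D. In iHEAs against iHLOs, where 2.26% of all genes were called (1.19% higher and 1.07% lower), none of the 4 tested members was called by edgeR, with 1 of the 4 at an unadjusted p under 0.05 and 1 called by DESeq2. That gene was Tat, with a log2 fold change of 2.41 ± 0.62 and a 95% interval of 1.06 to 3.77 (adjusted p = 0.0718 by edgeR and 0.000879 by DESeq2). The value rested on iHEA 1. Without it the log2 fold change was 0.35 (adjusted p = 0.609, edgeR), and without the other iHEA library it was 3.21 (adjusted p = 1.82e-10, edgeR). Where leaving out a library leaves a condition with 1, as here and in the other values of this kind, that library is assumed to vary like those of the other conditions. The 95% intervals of the other differences were -0.16 to 0.037 for Glul, -0.11 to 0.24 for Asl and -0.62 to 0.11 for Ass1. Of the members added under the filter none was called, and G6pc, with 1 and 2 counts against 7 and 5, was at -1.82 on the log2 scale (unadjusted p = 0.0404, adjusted p = 0.358, edgeR). In 2D-iHEs against 2D-iHs, where 8.17% of all genes were called (4.26% higher and 3.92% lower), none of the 4 was called by edgeR or by DESeq2 and none had an unadjusted p under 0.05, with intervals of -0.031 to 0.17 for Glul, -0.17 to 0.16 for Asl, -0.61 to 0.071 for Ass1 and -7.05 to 2.02 for Tat. Of the added members none was called, and Cps1, with 3 and 1 counts against 17 and 3, was at -2.12 (unadjusted p = 0.0227, adjusted p = 0.144, edgeR). Tat, with 2 and 1 counts against 11 and 9, was called lower in 2D-iHEs when iHEA 1 (log2 fold change -2.52, adjusted p = 0.0230, edgeR) or the other iHEA library (-2.52, 0.0242) was left out of the shared fit. The difference between the effects of iECs in 3D and in 2D, for which 3.14% of all genes were called (1.52% higher and 1.62% lower), was called for none of the 4 members by edgeR. Tat was at 4.93 ± 2.08 (log2, adjusted p = 0.279, edgeR) and was called by DESeq2 (adjusted p = 0.00139), without iHEA 1 (2.87, adjusted p = 0.0302, edgeR) and without the other iHEA library (5.73, adjusted p = 2.03e-05, edgeR).

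In the comparison of converted cells with their source, 2D-iHs against MEFs, 8 members passed the filter, 4 were higher and none was lower, beside 83.9% of all 14121 genes called (45.7% higher and 38.2% lower). Glul rose from 38.9 ± 0.696 to 176 ± 1.20 CPM (SD, n = 2 each). This was a log2 difference of 2.18 ± 0.059 (adjusted p = 1.37e-14, edgeR). Asl rose from 20.9 ± 1.13 to 26.8 ± 0.648 CPM (log2 fold change 0.35 ± 0.077, adjusted p = 0.000541, edgeR). Marker lists moved as well, with 8 fibroblast markers summing to 26505 to 28073 CPM in MEFs and 3.73 to 4.00 CPM in 2D-iHs, 8 intestinal and stomach markers to 2.60 to 2.66 and 740 to 802 CPM, 8 endothelial markers to 25.8 and 465 to 473 CPM, and 5 proliferation markers to 611 to 630 and 1121 to 1207 CPM. The endothelial sum rose mainly through Cdh5, from 0 and 1 counts in MEFs to 16261 and 14322 in 2D-iHs. Vwf rose as well (2 and 2 to 1010 and 838 counts), whereas Eng fell from 844 and 727 to 86 and 69 counts. The part of these marker lists in the changes was not tested. The calls of Cps1 (17 and 3 counts against 0 and 0, adjusted p = 0.00163, edgeR) and Pck1 (12 and 0 against 0 and 0, adjusted p = 0.0376) rested largely or wholly on 2D-iH 1. In that library the counts of Cps1, Pck1, Cyp2e1 and Alb were 0.0142%, 0.0370%, 0.0155% and 0.00262% of their adult counts, and the part of traces of liver RNA in these calls was not tested. Without 2D-iH 1, Pck1 was at 0 on both sides, and Cps1 was still called (adjusted p = 0.0278, edgeR) on 3 counts of 1 library against none. The call of Pck1 also failed without either MEF library and by DESeq2 (adjusted p = 0.124), and Fbp1, with 6 and 4 counts in MEFs, was called lower without 2D-iH 1 (adjusted p = 0.0459, edgeR). Tat, with 11 and 9 counts against 0 and 0, at least 3.18-fold, was not called (adjusted p = 0.249, edgeR), but was called without iHEA 1 (adjusted p = 0.000370), without the other iHEA library (0.000366) and by DESeq2 (0.000333).

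All members were read more in adult than in fetal liver. Of the 8 members that passed the filter, Cps1, Otc, Pck1 and Fbp1 did so only through the adult libraries, so that they had to differ and their calls are given as a description. The other 4 (Ass1, Asl, Glul and Tat) were all called higher, beside 83.7% of all genes called (40.0% higher and 43.8% lower). The largest differences were those of Tat (13.83 ± 0.65, adjusted p = 3.07e-11, edgeR), Fbp1 (13.47 ± 0.20, adjusted p = 4.85e-16), Pck1 (11.98 ± 0.23, adjusted p = 6.40e-15) and Cps1 (10.93 ± 0.17, adjusted p = 1.03e-16). The sizes for Tat, Fbp1 and Pck1 rest on few fetal counts (8 and 11, 11 and 1, and 26 and 8), those of Fbp1 and Pck1 mostly from Fetal-Liver 1. Ass1 (5.69 ± 0.18), Asl (4.96 ± 0.076) and Otc (4.67 ± 0.084) followed, and Glul (2.45 ± 0.056, adjusted p = 1.48e-15) differed least. G6pc, below the filter, was at least 573-fold higher in adult liver after TMM scaling. Within the urea cycle the fetal level as a percentage of the adult level was 3.92% for Otc, 3.21% for Asl, 1.93% for Ass1 and 0.0509% for Cps1, and as shares of total counts 10.7%, 8.78%, 5.29% and 0.139%. The fetal libraries also held much more blood, with 8 erythroid markers summing to 33332 to 34053 CPM against 631 to 680 CPM in adult liver. The 5 proliferation markers (3471 to 3899 against 134 to 139 CPM) and 4 fetal hepatic markers (17504 to 19390 against 11.7 to 12.3 CPM) were higher in fetal liver too. Other lists were higher in adult liver, among them 8 macrophage and white cell markers (353 to 425 against 732 to 769 CPM), although Mpo ran the other way. The part of these lists in the differences was not tested. For the members the scaling changed the size and not the direction of the difference. With plain total counts the median over all genes shifted by -1.42 on the log2 scale, 16.2% of all genes were called higher and 75.3% lower, and Glul was higher by 1.02 (adjusted p = 2.09e-11, edgeR).

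In the 3D cultures against adult liver, the same 4 members that passed the filter without the adult libraries were all lower, beside 86.4% of all genes called (40.1% lower and 46.3% higher). The fitted log2 differences were -1.65 ± 0.044 for Glul (adjusted p = 7.09e-15, edgeR), -6.09 ± 0.060 for Asl (adjusted p = 5.00e-20), -7.90 ± 0.14 for Ass1 (adjusted p = 5.18e-17), -10.14 ± 0.37 for Tat (adjusted p = 1.25e-12) and -11.45 ± 0.10 for Otc (adjusted p = 1.52e-18), which passed the filter through adult liver. Without iHEA 1, Tat was at -11.18 (adjusted p = 7.44e-19, edgeR). Pck1 and Fbp1, at most 1 count in any 3D library, were at least 23815-fold and 23891-fold higher in adult liver after TMM scaling, and plain shares of the total count give smaller folds. Cps1, with 2 to 4 counts in the 3D libraries, stood at 0.000945% of the adult level (0.00266% as a share of total counts). Marker lists differed too, with 8 intestinal and stomach markers summing to 2186 to 2249 CPM in 3D and 27.0 to 27.9 CPM in adult liver, 6 cholangiocyte markers to 1197 to 1503 and 263 to 267 CPM, 8 macrophage and white cell markers to 126 to 135 and 732 to 769 CPM, and 4 stellate cell markers to 0.323 to 0.472 and 142 to 144 CPM. Single markers ran against their sums. Cd14, of the white cell list, had 3179 to 3827 counts in 3D and 151 and 186 in adult liver. Spp1, of the cholangiocyte list, had 348 to 598 and 2978 and 3111. The part of these marker lists in the differences was not tested. With plain total counts the median over all genes shifted by 1.45, 18.5% of all genes were called lower and 74.9% higher, and Glul was lower in 3D by only 0.20 on the log2 scale (adjusted p = 0.000410, edgeR). Against fetal liver, where 87.5% of all genes were called (43.3% higher in 3D and 44.2% lower), Glul (0.80 ± 0.048, adjusted p = 1.93e-10, edgeR) and Tat (3.69 ± 1.00, adjusted p = 0.00309) were higher in 3D. The other 6 members tested were lower, from Asl (-1.13 ± 0.063, adjusted p = 7.11e-11, edgeR) and Ass1 (-2.21 ± 0.13, adjusted p = 1.77e-10) to Otc (-6.78 ± 0.13, adjusted p = 4.77e-15). Without iHEA 1, Tat was at 2.65 (adjusted p = 1.03e-06, edgeR). The call of Fbp1, with 11 and 1 counts in fetal liver, did not hold without Fetal-Liver 1 (adjusted p = 0.239, edgeR). Marker lists differed from fetal liver as well. The 8 erythroid markers summed to 0.825 to 1.14 CPM in 3D and 33332 to 34053 CPM in fetal liver. The 5 proliferation markers summed to 268 to 308 and 3471 to 3899 CPM, and the 8 intestinal and stomach markers to 2186 to 2249 and 11.7 to 13.4 CPM. Their part in the differences was not tested. The comparisons with liver share the 3D libraries with those above.

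**Figure D3:**
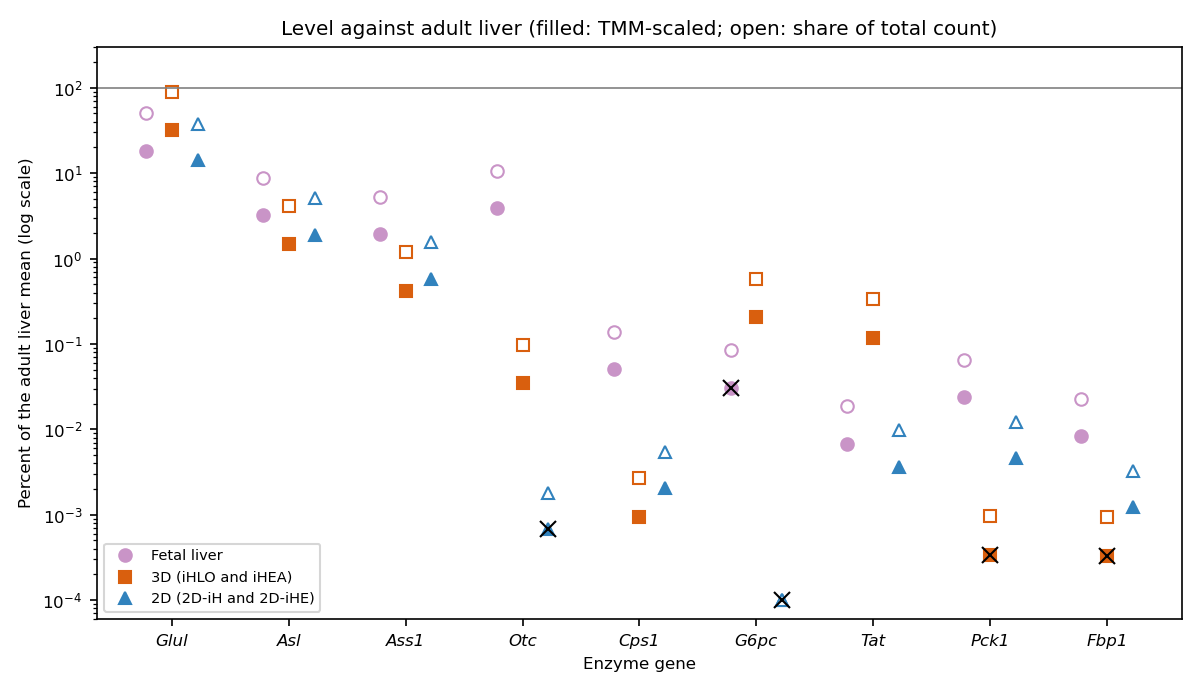
Mean level of each enzyme in fetal liver (circles), 3D cultures (squares) and 2D cultures (triangles) as a percent of adult liver on a log axis, after TMM scaling (filled) and as shares of total counts (open). Crosses mark groups with at most 3 counts in every library, and G6pc in 2D, at 0, is drawn at the lower edge. Glul in 3D, at 31.9% or 89.7%, lies nearest to adult liver.

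Several of these enzymes have a counterpart that does related work in other tissues. All culture libraries held Pck2, Cad and G6pc3, whereas Fbp2 exceeded 3 counts only in 3D culture and G6pc2 in none. Pck2, the mitochondrial PEP carboxykinase, had 2337 and 1972 counts in MEFs, 8511 and 8854 in 2D-iHs, 10614 and 6330 in 2D-iHEs, 5790 and 5409 in iHLOs, 5799 and 4385 in iHEAs, 2394 and 2196 in fetal liver and 104 and 102 in adult liver. It was thus lowest where Pck1 was highest, and per kilobase adult liver had 716 times as much Pck1 as Pck2, whereas the fetal libraries, with 26 and 8 counts of Pck1, had 40.4 and 121 times as much Pck2 as Pck1. Pck2 was higher in 2D-iHs than in MEFs (log2 fold change 1.96 ± 0.071, adjusted p = 5.23e-13, edgeR), lower in 3D than in 2D (-0.60 ± 0.057, adjusted p = 1.90e-06) and higher in 3D than in adult liver (4.55 ± 0.097, adjusted p = 3.67e-16). Cad, which makes carbamoyl phosphate for pyrimidines where Cps1 makes it for urea, fell in 3D by 0.83 ± 0.046 on the log2 scale (adjusted p = 1.79e-08, edgeR) and was lower in adult than in fetal liver (-3.02 ± 0.073, adjusted p = 2.64e-15). Per kilobase, adult liver had 387 times as much Cps1 as Cad, whereas the 3D libraries, with 2366 to 3131 counts of Cad, held 2 to 4 of Cps1. G6pc3, the widely used glucose-6-phosphatase, had 877 to 1556 counts in MEFs and all cultures and 237 and 224 in adult liver, and was slightly higher in 3D (0.26 ± 0.040, adjusted p = 0.000115, edgeR). G6pc2, the islet form, did not pass the filter.

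Fbp2, the muscle form of fructose bisphosphatase, was the counterpart that appeared with 3D culture. It had 75 and 101 counts in iHLOs and 93 and 97 in iHEAs, against 0 and 1 in 2D-iHs, 1 and 1 in 2D-iHEs and 1 and 0 in MEFs, at least 30.8-fold, with 11 and 7 counts in adult and 19 and 10 in fetal liver. All 4 3D libraries were above all others, and as Fbp2 passed the filter only through them, its level there is a description. Gls2, which releases ammonia from glutamine in liver, fell in 3D (-0.45 ± 0.13, adjusted p = 0.00808, edgeR). It had 10889 and 11550 counts in adult liver against 316 to 711 in the cultures. Together, 5 of these 6 genes were tested in 3D against 2D, of which Fbp2 and G6pc3 were higher and Pck2, Cad and Gls2 lower, beside 38.7% of all genes called higher and 37.2% lower. Of the 4 that passed the filter on both sides, without Fbp2, 1 was higher and 3 were lower.

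**Figure D4:**
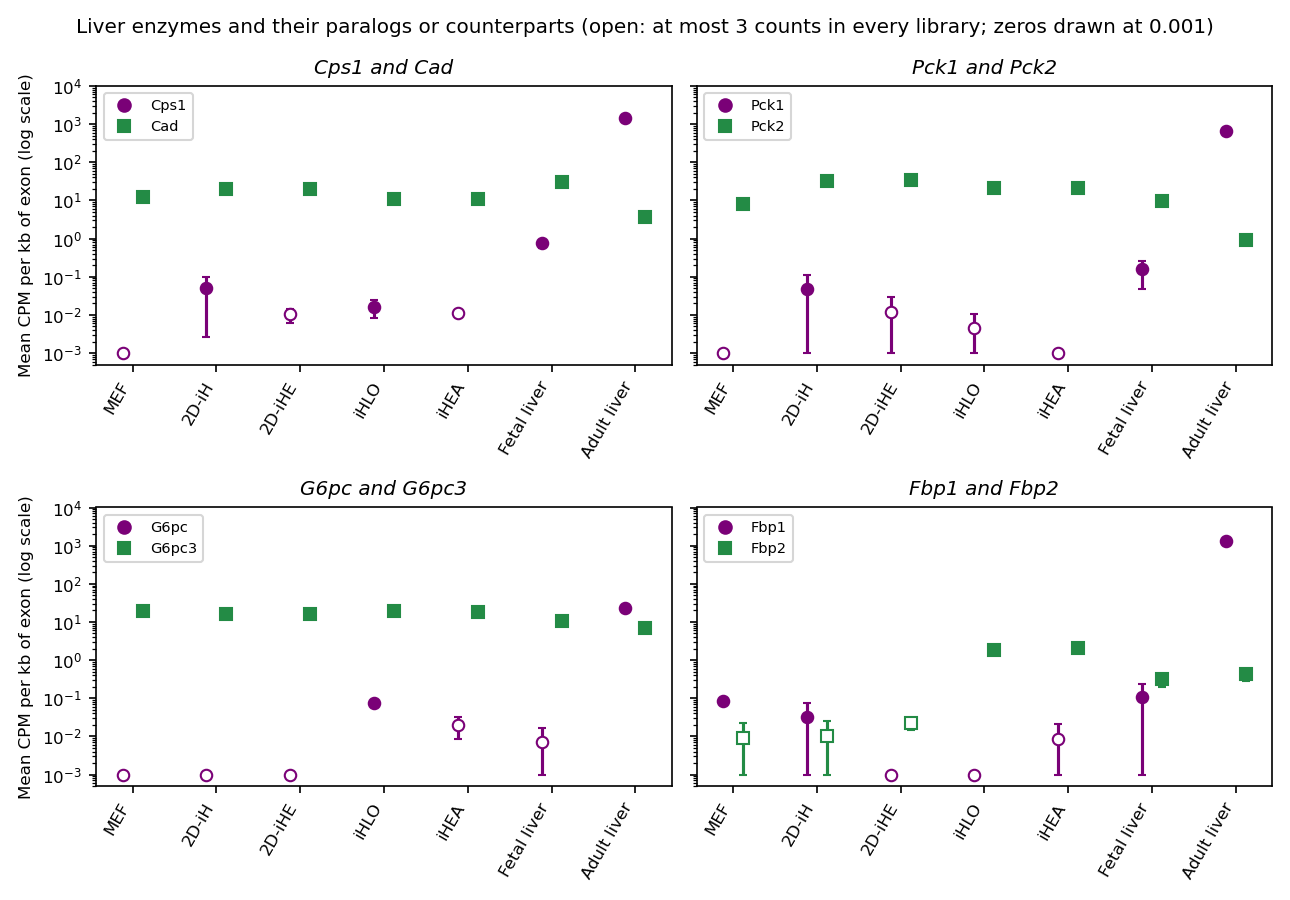
Mean CPM per kilobase of exon (log axis; error bars, SD, n = 2) of 4 pairs of enzymes in the 7 conditions, with the liver form in purple circles and its counterpart in green squares. Open symbols mark at most 3 counts in every library, zeros are drawn at 0.001, and error bars are cut at that value. Pck2, Cad and G6pc3 lie above Pck1, Cps1 and G6pc in all conditions except adult liver, and Fbp2 rises to 1.93 CPM per kb in 3D.

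Among 12 genes that supply or carry the substrates of the urea cycle, 9 were tested in 3D against 2D, of which 2 were higher and 6 lower (median log2 fold change -0.36, against 0.01 over all genes). Beside the counts of this and the lists that follow stand 38.7% of all genes called higher and 37.2% lower in 3D against 2D, and 40.0% and 43.8% in adult against fetal liver. Slc7a2, a carrier of arginine and ornithine across the cell membrane, rose by 1.99 ± 0.051 on the log2 scale (adjusted p = 4.87e-11, edgeR), from 1033 to 1554 counts in the 2D libraries to 4604 to 5437 in the 3D libraries. Slc25a15, the mitochondrial ornithine carrier, rose by 0.63 ± 0.047 (adjusted p = 2.39e-07, edgeR). Aldh18a1, which makes the precursor of proline and ornithine, Slc25a13, the aspartate carrier of the cycle, and Got2, a mitochondrial transaminase, fell by 0.73 ± 0.039, 0.72 ± 0.047 and 0.71 ± 0.038. Between adult and fetal liver, 7 of 9 were higher in the adult and 2 lower, led by Slc7a2 (3.69 ± 0.068), Got1 (3.61 ± 0.070) and Slc25a15 (3.25 ± 0.055), with Aldh18a1 (-4.91 ± 0.090) and Slc25a12 (-0.29 ± 0.084) lower. With total counts 5 were higher and 3 lower.

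Of 16 further enzymes and carriers that gluconeogenesis uses, many of them shared with glycolysis, all 16 were tested, and 5 were higher and 8 lower in 3D than in 2D (median -0.42). Slc25a10, the dicarboxylate carrier (0.87 ± 0.054, adjusted p = 4.53e-08, edgeR), Pcx, pyruvate carboxylase (0.80 ± 0.082, adjusted p = 3.37e-06), and Mdh1, cytosolic malate dehydrogenase (0.67 ± 0.036, adjusted p = 1.53e-08), rose. Eno1 (-1.50 ± 0.065), Pgk1 (-1.47 ± 0.084) and Ldha (-1.35 ± 0.080), which act in glycolysis, fell. Of the 16, between adult and fetal liver, 14 were higher and 1 lower, led by Slc37a4, the carrier that feeds G6pc (4.17 ± 0.070), Mpc1, a pyruvate carrier subunit (3.85 ± 0.097), and Pcx (3.52 ± 0.081), and Ldhb was lower (-2.70 ± 0.32). These counts depended on the scaling, since with total counts 6 were higher and 9 lower, and the direction turned for 9 genes, among them Mdh2, Gpi1, Pgk1, Eno1, Gapdh and Ldha, but not for the 3 that led. Of 12 genes of glycolysis and its control at the steps opposed to these (enzymes and Gckr, the protein that restrains glucokinase), 9 were tested in 3D against 2D, with 3 higher and 5 lower (median -0.23). Pklr, the liver pyruvate kinase, rose (1.75 ± 0.10, adjusted p = 2.61e-08, edgeR), while Pfkfb1 (-1.38 ± 0.11), Pkm (-1.25 ± 0.069) and Pfkm (-0.86 ± 0.055) fell, and Pfkfb3 (0.54 ± 0.18) and Hk2 (0.25 ± 0.043) rose. In adult against fetal liver 3 of 10 were higher and 7 lower, with Gckr (3.97 ± 0.072), Pfkfb1 (3.85 ± 0.083) and Pklr (0.40 ± 0.071) higher and Hk1 (-4.70 ± 0.083), Pkm (-3.10 ± 0.086) and Hk2 (-2.37 ± 0.093) lower. With total counts Pklr was lower in adult liver (-1.02 ± 0.070, adjusted p = 1.13e-09, edgeR).

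Tat belongs to a wider set of amino acid breakdown enzymes. Of 19 such genes 12 were tested in 3D against 2D, and 4 were higher and 4 lower (median 0.35). Sdsl, a serine dehydratase-like enzyme (1.78 ± 0.13, adjusted p = 2.25e-07, edgeR), Gpt (0.74 ± 0.069) and Gpt2 (0.37 ± 0.044), the alanine transaminases, rose, and Aass (-1.58 ± 0.18), Fah (-0.83 ± 0.064) and Cth (-0.81 ± 0.052) fell. Hgd, which acts after Tat in tyrosine breakdown, had 2 to 11 counts in the cultures against 24456 and 24821 in adult liver. In adult against fetal liver all 19 were tested and higher, led by Tdo2 (11.43 ± 0.16), Sds (10.22 ± 0.22) and Mat1a (10.06 ± 0.19), but 6 of them, Tdo2 and Sds included, passed the filter only through adult liver. The other 13 were all higher, also with total counts.

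The transcription factors and receptors known to act on these enzymes were followed as a list of 24 genes, of which 17 were tested in 3D against 2D, with 10 higher and 3 lower (median 0.30). Creb3l3, a fasting-responsive factor of hepatocytes (3.31 ± 0.32, adjusted p = 2.15e-06, edgeR), Klf15, a factor of amino acid breakdown (2.79 ± 0.13, adjusted p = 4.79e-09), and Cebpa, which drives the urea cycle genes in liver (2.08 ± 0.18, adjusted p = 7.83e-07), rose most. Cebpb (-0.38 ± 0.083), Nr1h4 (-0.38 ± 0.16) and Creb1 (-0.28 ± 0.050) fell. Klf15 was also the only gene of these lists called between iHEAs and iHLOs (-0.39 ± 0.092, adjusted p = 0.0476, edgeR), at 1306 and 903 counts against 1655 and 1424. Ppargc1a, a coactivator of gluconeogenic genes, had 1, 0, 0 and 0 counts in the 2D libraries, 35 and 31 in iHLOs, and 95 and 19 in iHEAs, where the higher value came from the library with 538 counts of Tat. It was at least 14.7-fold higher in 3D, at least 9.49-fold without iHEA 1, and below the filter. Onecut1 was at 0 in every culture and MEF library, and Gcgr, the glucagon receptor, had 0 to 5 counts there against 7233 and 7555 in adult liver. Hnf4a, which the vector also supplied, with a share of the reads that was not measured, had 4117 to 7670 counts in the cultures. Adult liver exceeded fetal liver in 21 of 23 tested, led by Nr0b2 (6.99 ± 0.29), Nr1h4 (5.57 ± 0.10) and Ppara (4.96 ± 0.11), and Creb1 (-1.29 ± 0.083) and Crebbp (-0.63 ± 0.065) were lower. With total counts 16 were higher and 4 lower, and 4 of the 23, Nr0b2 included, passed the filter only through adult liver.

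The zonal neighbours of Glul and of the urea cycle were also listed. Of 9 genes found with Glul around the central vein only 2 were tested in 3D against 2D, and 1, Tbx3, was higher (0.86 ± 0.16, adjusted p = 0.000422, edgeR). Cyp2e1 was at 0 in all 3D libraries and Cyp1a2 in all cultures. Lgr5 had 275 counts in iHEA 1 and 0 or 1 in the other 3D libraries. Of 8 genes found with the urea cycle around the portal vein 6 were tested, of which Pigr and Cyp2f2 passed the filter only through the 3D libraries. Of the other 4, 1 was higher and 1 lower. Hsd17b13 rose by 1.65 ± 0.29 on the log2 scale (adjusted p = 0.000284, edgeR). Pigr, the immunoglobulin carrier, had 3 to 9 counts in the 2D and 10196 to 17539 in the 3D libraries, and Cyp2f2 had 1 to 3 and 3029 to 3576, at least 1076-fold, which is given as a description. Pigr and Cyp2f2 are also made by epithelia outside the liver. Gls2 was the periportal gene that fell. In adult against fetal liver all 8 periportal genes tested were higher, led by Cyp2f2 (at least 12481-fold after TMM scaling), Pigr (11.93 ± 0.29) and Apoc3 (11.84 ± 0.16), and 4 of 6 pericentral genes were higher, led by Slc1a2 (7.66 ± 0.19), Rgn (4.79 ± 0.11) and Slc13a3 (0.99 ± 0.16). Slc13a3 passed the filter only through adult liver, and of the other 5 pericentral genes 3 were higher. With total counts 2 pericentral genes were higher and 4 lower, Slc13a3 among the latter, while all 8 periportal genes stayed higher, of which Sds and Apoc3 passed the filter only through adult liver.

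Against adult liver, the 3D cultures were lower in 19 of 19 amino acid breakdown genes tested, 15 of 16 gluconeogenesis partners, 18 of 23 factors and receptors, 7 of 9 supply genes and in all 6 pericentral and 8 periportal genes, and higher in 4 of 5 counterparts, while of 10 genes of the glycolysis list 5 were higher and 4 lower, beside 40.1% of all genes lower and 46.3% higher. Of these genes, 6 of amino acid breakdown, 4 factors and receptors, 1 pericentral and 2 periportal passed the filter only through adult liver. With total counts, where 18.5% of all genes were lower and 74.9% higher, the numbers lower were 18 of amino acid breakdown, 7 partners (5 were then higher), 13 factors and receptors (9 higher), 5 supply genes (3 higher), 4 pericentral (1 higher) and 8 periportal, 4 counterparts were higher, and of the glycolysis list 7 were higher and 3 lower.

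The genes most alike in pattern were sought by Pearson's r of the mean log2 CPM over the 7 conditions, a description dominated by the distance of adult liver from the rest. Asl and Pck1 were among each other's 2 nearest genes (r = 0.999), beside 2310039H08Rik (0.998) for Asl and Cyp3a11 (0.999) for Pck1. The nearest genes were Pank1 (0.999) and Pon1 (0.998) for Ass1, Rab17 (0.997) and H2-D1 (0.994) for Glul, and Adh1 (0.993) and Anks1 (0.992) for Tat. For Cps1 they were Atp5e and Ces1g, for Otc Mrpl50 and Pirb, for Fbp1 Fgl1 and Nat9, and for G6pc Acsf2 and Crot, all at 0.996 to 0.998. Over 7 points, 5 (Tat) to 40 (Cps1) genes exceeded 0.99 for each member.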

How the data were processed

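Total RNA of 14 mouse libraries was sequenced by the authors, who, per the labels and methods, trimmed reads with Trimmomatic 0.36, aligned them with HISAT2 to mm10 (GRCm38) and counted them per gene with HTSeq. The values used are those deposited counts, which were not normalized. Strand setting, treatment of reads that match several genes, and annotation release are not given in the sources used here. The second 3D-iHEA column could be assigned to its condition only and carries no number.

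The filter kept genes whose log2(count + 1) averaged 3 or more over the libraries fitted. These were compared by edgeR 4.0.16 (quasi-likelihood, R 4.3.3), with TMM scaling and Benjamini-Hochberg adjustment over all genes tested, at 0.05. The 3D against 2D test used the 8 culture libraries in 2 groups, the other culture comparisons the same libraries with a term per condition, and comparisons with MEFs or liver all 14 libraries. Alternatives were DESeq2 1.42.0, its size factors, other filters, other sets of libraries, leaving out each library, a replicate block and, chosen after seeing the data, total-count scaling, leaving out both culture libraries that stand apart, and counting genes that pass the filter without the adult libraries or in both 2D and 3D culture. Intervals are 95%. Folds against a group with at most 3 counts in every library are lower bounds against 3 counts per library and cover counting error only in that sense. The fitting code was tested on simulated data. Descriptive tables were made in Python 3.11.15.

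The members and gene lists were chosen with earlier results of these data known. The values of 1 member and of some listed genes are not reported here, and counts and medians over the members and lists leave them out. Text names the other members and their counterparts, and from each other list at most 3 called genes that increased most and 3 that decreased most. Nags, Hgd, Ppargc1a, Onecut1, Gcgr, Hnf4a, Lgr5, Cyp2e1 and Cyp1a2 were named after their values were seen. For likeness in pattern, log2 CPM with a prior count of 2 was averaged per condition and correlated over the 7 conditions.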

Additional observations from a re-analysis of the deposited data

Results flagged for a closer look

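Of 14 groups of 4 libraries examined (members with more than 3 counts in at least 1 of the pooled 2D or 3D libraries), 3 held a library whose gap to its nearest neighbour, divided by the whole range, passed Dixon's 95% critical value for 4 samples, where chance flags about 1 in 20 groups. Tat in the 3D libraries had a ratio of 0.939, with 3D-iHEA 1 at 15.8 CPM and the others at 1.27 to 2.16 CPM. Cps1 in the 2D libraries had a ratio of 0.881, with 2D-iHepSC 1 at 0.459 CPM. Fbp1 in the 2D libraries had a ratio of 1.0, with 2D-iHepSC 1 at 0.108 CPM (4 counts) and the others at 0, a ratio that is 1.0 whenever 3 libraries are at 0, so that the rate by chance does not hold for it. Beside Tat, 3D-iHEA 1 differed from the other iHEA library in Lgr5 (275 and 0 counts) and Ppargc1a (95 and 19 counts), and 2D-iHepSC 1 differed from 2D-iHepSC 2 in Alb (210 and 9 counts). Their part in the flagged values was not tested.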

How the results depend on the processing

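Of 1099 alternative values of single log2 fold changes, 1034 kept their direction and their side of the threshold, 23 lost the call, 26 gained one and 16 reversed. Glul kept its direction and call in every comparison of 3D with 2D culture, of 3D with liver and of adult with fetal liver under every alternative run. The labels' numbers did not pair the libraries: deviations of libraries with the same number correlated at -0.070 to 0.048 over 15 pairs of conditions. With the replicate block (without the unnumbered 3D-iHEA library) 1 member was called higher and 1 lower in iHEAs against iHLOs (Tat 3.52 and Ass1 -0.53 on the log2 scale), 2 lower in 2D-iHEs against 2D-iHs (Ass1 -0.28 and Tat -2.46) and 1 higher in the 3D minus 2D difference of the iEC effect (Tat 5.99), where none was called in the full fit without the block, and Tat was called in 2D-iHs against MEFs (adjusted p = 0.000990, edgeR). That fit changes 2 choices, and leaving out the unnumbered library with no block already called Tat in these 4 comparisons (adjusted p = 1.82e-10, 0.0242, 2.03e-05 and 0.000366, edgeR) but not Ass1 (adjusted p = 0.184 and 0.142).

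Without a filter on low counts, 4 members were higher in 3D against 2D and in iHLOs against 2D-iHs, as also with the members under the filter added (4 each). Without the filter, 1 was higher and 1 lower in iHEAs against iHLOs, 2 were lower in 2D-iHEs against 2D-iHs and 1 was higher in the difference of the iEC effects, but that fit estimated no gene-to-gene spread of the dispersion and its p-values may be too small. With the filter raised to an average log2(count + 1) of 5, fewer members were tested, and 1 was higher in 3D against 2D, in iHLOs against 2D-iHs and in iHEAs against 2D-iHEs, 2 in 2D-iHs against MEFs and 4 in adult against fetal liver, while 4 were lower in 3D against adult and 2 in 3D against fetal liver. With DESeq2, 1 was lower in iHLOs against 2D-iHs and in iHEAs against 2D-iHEs, and 1 higher in iHEAs against iHLOs and in the difference of the iEC effects. With only the 4 libraries compared, 2 were higher in 2D-iHs against MEFs. With both libraries that stand apart left out, 1 was lower in 3D against 2D, in iHEAs against 2D-iHEs and in 2D-iHs against MEFs.

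When each library was left out in turn, the members called lower ranged from 1 to 2 in 3D against 2D and in iHLOs against 2D-iHs, from 0 to 2 in iHEAs against 2D-iHEs, and from 0 to 1 in 2D-iHEs against 2D-iHs and 2D-iHs against MEFs. Those called higher ranged from 1 to 2 in iHLOs against 2D-iHs and from 0 to 1 in iHEAs against iHLOs and the difference of the iEC effects. Reversals concerned differences that were not called or rested on a few counts. Asl in 2D-iHEs against 2D-iHs was 0.022 with total counts and -0.093 to 0.067 with a library left out. Ass1 in the difference of the iEC effects was -0.0012 without a filter, -0.25 with the replicate block and -0.29 to 0.40 with a library left out, and Asl -0.0040 to 0.17. In iHEAs against iHLOs with a library left out, Ass1 was -0.56 to 0.13 and Asl -0.0094 to 0.14. In 2D-iHs against MEFs with both libraries that stand apart left out, Otc and Pck1 were at 0, and with a library left out Otc was 0 to 2.91 and Pck1 0 to 6.31. DESeq2 size factors shifted the median of all genes by 0.11 in adult against fetal liver and by -0.14 in 3D against adult liver. Apart from what the settings' own construction shows, the cause of these changes was not tested. Depth limits Cps1, Otc, Pck1, Fbp1 and G6pc in the cultures, which held 0 to 17 counts of each per library.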
